A study of Mus musculus with 6 samples.

Results

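The mitochondrial ribosomal protein genes are the nuclear genes whose proteins build the ribosome of the mitochondrion. They were taken as all genes with a platform symbol of the form Mrpl or Mrps followed by a number and, in some, a letter, and each was read by its brightest probe set. Of 78 such genes in the RefSeq annotation of GRCm38.p6, 77 had a probe set of their own among 19938 genes tested, 48 with an Mrpl and 29 with an Mrps symbol. The remaining gene, Mrpl53, shared its probe set with Ccdc142 and was not counted.

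The data are 6 arrays, 1 per condition, of RNA from the mouse embryonic stem cell line V6.5. There were 3 derived lines, carrying hairpin 1, hairpin 2 or a scrambled hairpin, and each was grown with doxycycline (dox) at 1 µg/ml and without it. The titles name Pcgf6, a polycomb protein gene, and dox switches the hairpins on. All 6 cultures stood on DR4 mouse embryo fibroblasts, made unable to divide with mitomycin C, so that RNA of feeder cells can be part of a sample. The duration of dox treatment is not given in the sources used here. As the scrambled line was given dox too, dox minus no dox in each line holds the drug, the switching on of a hairpin and any difference between the cultures. These cannot be told apart within a line. Lowered Pcgf6 is added in hairpin 1 and hairpin 2. Wherever 3 values follow each other below, they stand for the hairpin 1, hairpin 2 and scrambled line in this order, and a difference is dox minus no dox on the log2 scale.

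The mitochondrial ribosome translates the few messenger RNAs of mitochondrial DNA, which encode core subunits of the respiratory chain. All of its proteins are made in the cytosol and imported. Part of them have homologues in the bacterial ribosome and part occur only in mitochondria. Doxycycline is a tetracycline antibiotic that binds the small subunit of bacterial ribosomes, and it can inhibit mitochondrial translation in animal cells. Inducible systems of this kind therefore expose mitochondria to the drug in control and knockdown cells alike.

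The knockdown was checked first. Pcgf6 measured 9.39 with dox and 11.56 without in the hairpin 1 line, 9.27 and 11.70 in the hairpin 2 line, and 11.82 and 11.80 in the scrambled line, all as log2 levels. It fell by 2.30 on the log2 scale over both Pcgf6 hairpins (SE 0.10, n = 2 against 2, limma adjusted p = 0.000846). The 12 stem cell markers lay above the array median on all 6 arrays, and so did 17 of 20 feeder fibroblast markers. Both cell types named in the labels were therefore represented by their markers.

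The mitochondrial ribosomal protein genes are brightly read as a group: 76 of 77 lay above the array median on all arrays, with values from 7.45 to 11.99. Probe sets differ in how well they bind, so the level of a member is not set against that of another member here. Because the arrays were brought to a common distribution, each value is relative to the other transcripts of its array. In such bulk samples fewer cells of a type and less RNA per cell cannot be told apart.

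The promoters of the members share sequence features that the choice by symbol did not use. The RefSeq promoter table (GRCm38.p6, 250 bases before to 50 bases after each start) held 74 promoters of 68 members. Motifs of factors known to act on genes of mitochondrial function were searched on both strands: the palindromic consensus of NRF1, CCGGAAG for the ETS family (which includes GABP) and AAGATGGCG for YY1. The NRF1 motif was in 17.6% of member promoters against 4.6% of all 32851 promoters. The ETS motif was in 33.8% against 8.86%, and the YY1 motif in 10.8% against 1.4%. Of protein-coding promoters, 6.38%, 11.6% and 1.83% held the NRF1, ETS and YY1 motifs. At least 1 of these was held by 40 of 74 member promoters (54.1%), against 13.6% of all promoters and 17.9% of those of protein-coding genes. The E-box CACGTG, bound by MYC and by MGA-MAX dimers, was in 9.46% of member promoters against 7.15% of all and 7.84% of protein-coding promoters. Of the 7 member promoters with an E-box 3 were overlapping windows of Mrpl2, and by gene 5 of 68 members held it. The E2F motif TTCCCGC was in 6.76% of member promoters against 4.6% of all and 5.95% of protein-coding promoters. The median GC content was 58.5% in member promoters, 56.3% in protein-coding promoters and 52.7% in all. The forms of the NRF1 motif on the 2 strands overlap, so each promoter was counted once per motif. A match is a run of letters, not a measured binding site.

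**Figure D1:**
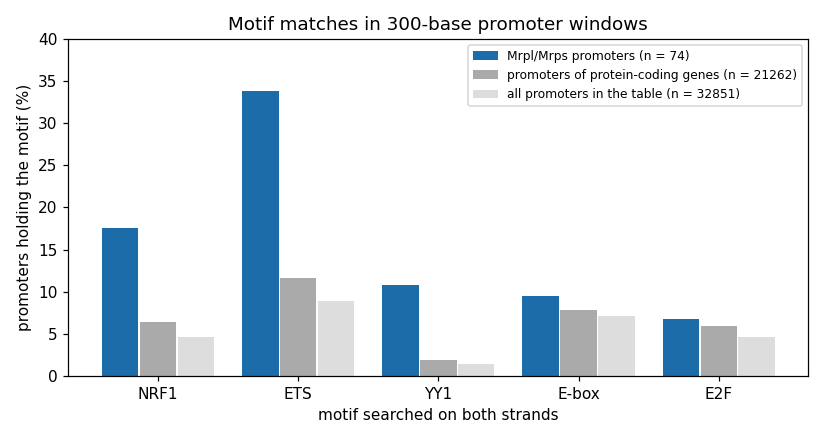
Share of 300-base promoter windows that hold each of 5 motifs (percent, y axis) among 74 promoters of mitochondrial ribosomal protein genes, 21262 promoters of protein-coding genes and all 32851 promoters of the table. The NRF1, ETS and YY1 bars are higher for the members (17.6%, 33.8% and 10.8%) than for protein-coding promoters (6.38%, 11.6% and 1.83%) and all promoters (4.6%, 8.86% and 1.4%).

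To show what such a promoter looks like, the 120 bases before the start are given for 4 members, 5′ to 3′ on the strand of the gene, with the match in capitals. Mrpl12 was among the lowest members in the scrambled line and Mrps21 was the lowest in the hairpin 2 line, while Mrpl22 and Mrpl57 were higher with dox in all 3 lines. The Mrpl12 window is chr11:120484517-120484636 on the plus strand, and its NRF1 match begins 81 bases before the start. The Mrps21 window is chr3:95871515-95871634 on the minus strand, and its NRF1 match begins 91 bases before the start. The Mrpl22 window is chr11:58171544-58171663 on the plus strand, and its ETS match begins 53 bases before the start. The Mrpl57 window is chr14:57826119-57826238 on the plus strand, and its NRF1 match begins 57 bases before the start.
Mrpl12: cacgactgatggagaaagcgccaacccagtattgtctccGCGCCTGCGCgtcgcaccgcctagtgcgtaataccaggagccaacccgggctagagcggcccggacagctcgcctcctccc
Mrps21: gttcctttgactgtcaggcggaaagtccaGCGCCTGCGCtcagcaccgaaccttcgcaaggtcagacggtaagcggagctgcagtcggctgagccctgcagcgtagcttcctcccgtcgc
Mrpl22: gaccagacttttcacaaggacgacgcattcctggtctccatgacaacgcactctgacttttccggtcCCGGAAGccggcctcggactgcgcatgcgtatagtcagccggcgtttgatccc
Mrpl57: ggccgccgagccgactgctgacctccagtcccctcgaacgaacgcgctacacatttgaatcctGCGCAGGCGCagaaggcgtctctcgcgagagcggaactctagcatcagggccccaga
These 4 windows are examples picked by hand, each with a match. Mrpl12 was higher with dox in the hairpin 1 line (0.10) and Mrps21 in the scrambled line (0.09). Whether a motif goes with the direction of the difference was not tested.

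The first comparison asked how the members differed with dox in each line, each from 1 array against 1 and with no test. In the hairpin 1 line 25 of 77 members were lower with dox and 52 higher, where 49.6% and 50.4% of all genes were, and the median over the members was 0.021 on the log2 scale. In the hairpin 2 line 53 were lower and 24 higher, where 54.2% and 45.8% of all genes were, with a median of -0.070. In the scrambled line 63 were lower and 14 higher, where 53.4% and 46.5% of all genes were, with a median of -0.136. The medians over all genes tested were 0.001, -0.020 and -0.013. The members thus lay slightly above all genes in the hairpin 1 line and below them in the other two. Among the brighter 50% of genes the shares of genes that were lower were 51.5%, 46.9% and 48.8%. The pattern of a higher value in the hairpin 1 line and lower ones in the others held for 29 members, or 37.7%, where 15.1% of all genes had it. A lower value in the scrambled line with higher ones in both Pcgf6-hairpin lines held for 13 members, where 11.4% of all genes had it, and the reverse for 3 members, where 12% had it.

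Differences of at least 1.2-fold were few. In the hairpin 1 line, 1 member was higher by that much and 0 were lower, where 4.49% and 4.13% of all genes were. In the hairpin 2 line 1 member was higher and 7 were lower, the latter 9.09% of members where 9.27% of all genes were lower and 11.5% higher. In the scrambled line 0 members were higher (7.97% of all genes) and 12 were lower, 15.6% of members where 6.25% of all genes were. The share of lower members was therefore near that of all genes in the hairpin 2 line and above it in the scrambled line.

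**Figure D2:**
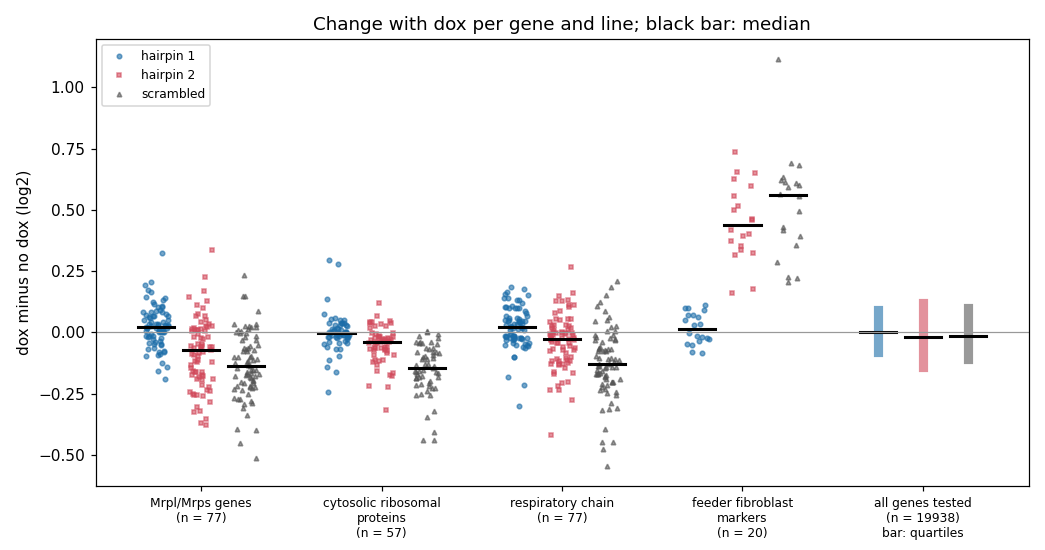
Dox minus no dox on the log2 scale (y axis) for each gene of 4 sets in the hairpin 1, hairpin 2 and scrambled lines, with black bars at the medians. For all 19938 genes tested the coloured bars span the quartiles. The medians of the mitochondrial ribosomal protein genes step down from 0.021 to -0.070 and -0.136, and the feeder fibroblast markers stand at 0.014, 0.439 and 0.562 in the same lines.

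Feeder cell markers were higher in the same lines in which the members were lower. All 20 feeder fibroblast markers were higher with dox in the hairpin 2 and scrambled lines, and 10 of 20 were in the hairpin 1 line. Their mean level was 10.33 with dox and 10.31 without in the hairpin 1 line, 10.64 and 10.19 in the hairpin 2 line, and 10.03 and 9.51 in the scrambled line. By limma 0 of the 20 passed over the 3 lines, at an unadjusted p under 0.05 too. Of all 19938 genes 0 passed, and at the unadjusted threshold 3.2% were higher and 3.96% lower. The mean level of the 77 members was 9.86 and 9.83, 9.82 and 9.90, and 9.77 and 9.90. With the feeder mean as a covariate the median over the 3 lines was -0.060, and it was -0.062 without. For the Pcgf6 hairpins alone it was 0.014 with the covariate and -0.032 without. In that fit the scrambled arrays were single, so the slope of the covariate rested on the hairpin 1 and hairpin 2 arrays only. It cannot be told apart there from a difference between these lines. Within a line the part of feeder cells in the members' values was not tested. The 12 stem cell markers had mean levels of 11.74 and 11.78, 11.67 and 11.81, and 11.79 and 11.88, and of these 0 passed, with 1 at an unadjusted p under 0.05.

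**Figure D3:**
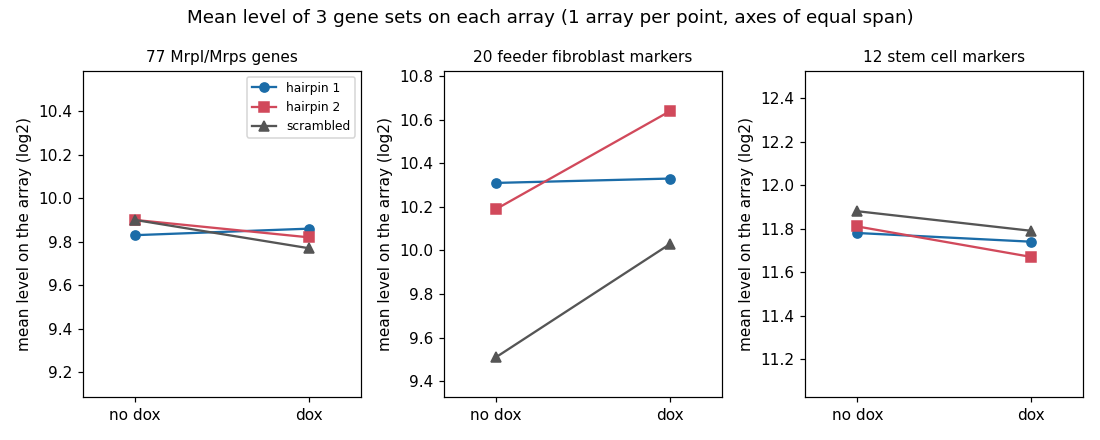
Mean log2 level (y axis, equal span in each panel) of the 77 mitochondrial ribosomal protein genes, 20 feeder fibroblast markers and 12 stem cell markers on each array, without and with dox, 1 point per array. In the hairpin 2 and scrambled lines the members' mean is lower with dox (9.82 against 9.90 and 9.77 against 9.90) and the feeder mean is higher (10.64 against 10.19 and 10.03 against 9.51).

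The second comparison set the 3 dox arrays against the 3 arrays without dox. By limma 0 of 77 members rose and 0 fell at an adjusted p of 0.05, where 0% of all genes were called in either direction. The smallest adjusted p of a member was 0.673. At an unadjusted p under 0.05 there was 1 higher member, Mrps6, and 1 lower member, Mrpl21, where 3.2% of all genes were higher and 3.96% lower. The fitted value was below 0 for 70 of 77 members and above 0 for 7, where it was for 54.8% and 45.2% of all genes. The median was -0.062, against -0.012 over all genes. Member values ran from -0.23 to 0.23 on the log2 scale. The median half-width of the members' 95% intervals was 0.18. No interval of a member reached beyond 0.47 in size, so each interval left out a change over 1.39-fold. Without the scrambled dox array 54 genes passed, of which 0 were members.

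With the line as a block, which compares each dox array with its own uninduced partner, 0 members passed as well (smallest adjusted p = 0.358 by limma). An unadjusted p under 0.05 was reached there by Mrpl21, Mrps6 and Mrpl22, so that 1.3% of members were lower and 2.6% higher, where 4.63% and 6.98% of all genes were. In all 3 lines 14 members were lower with dox, or 18.2%, where 18.5% of all genes were. Only 3 were higher in all 3 lines, or 3.9%, where 15.2% of all genes were: Mrps6, Mrpl22 and Mrpl57. All 3 dox arrays lay below all 3 uninduced arrays for 10 members (8.07% of all genes) and above them for 2 (4.08% of all genes). At 1.2-fold in all 3 lines, 0 members were lower and 0 higher, where 0.241% and 0.346% of all genes were.

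**Figure D4:**
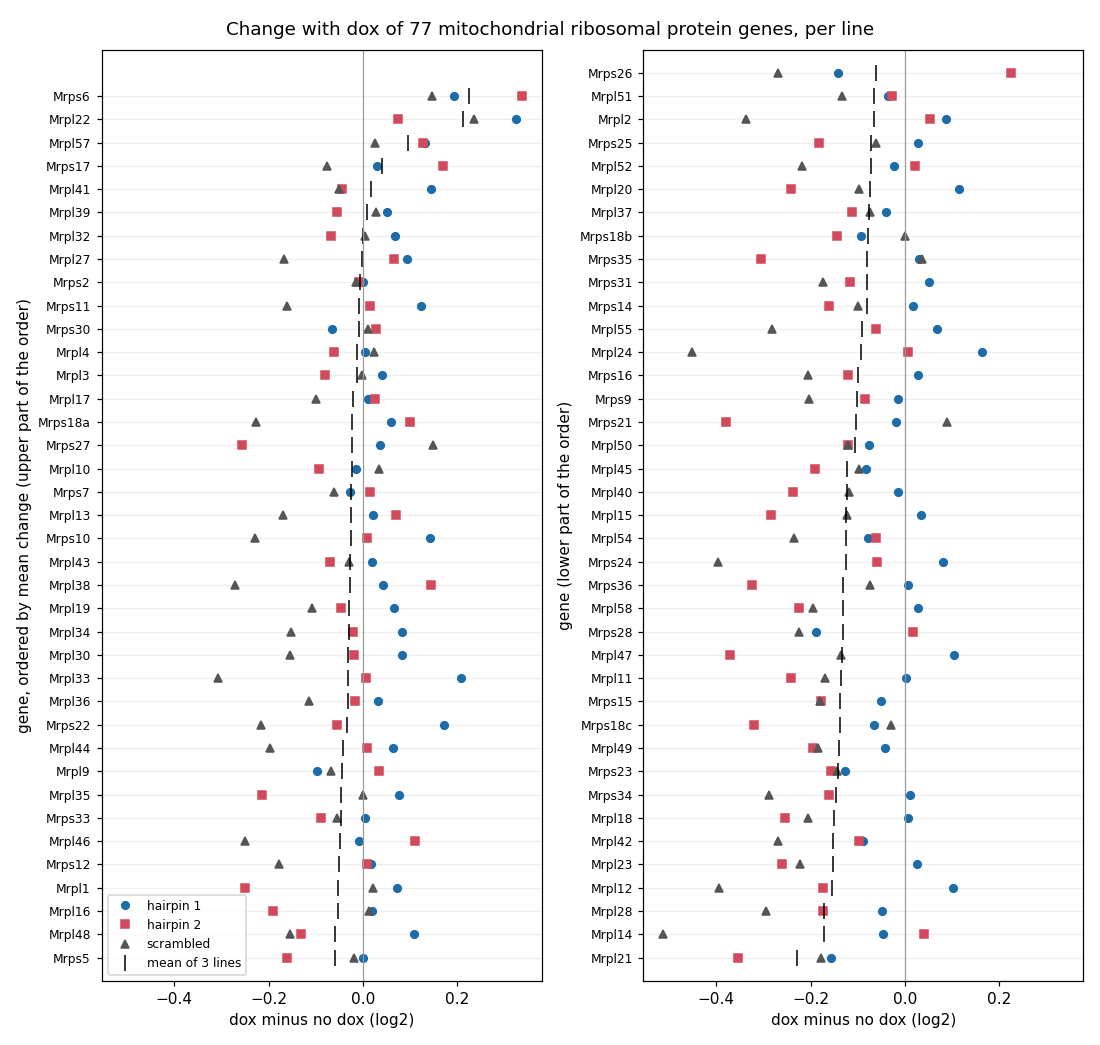
Dox minus no dox on the log2 scale (x axis) for each of the 77 genes, ordered by the mean of the 3 lines (black tick), with the hairpin 1, hairpin 2 and scrambled lines as separate points. Mean values run from 0.23 (Mrps6) to -0.23 (Mrpl21), 70 of 77 means lie below 0, and the points of 1 gene often spread over more than the distance of its mean from 0.

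Among large-subunit proteins, Mrpl21, a homologue of bacterial L21, had the lowest mean. It measured 9.44, 9.26 and 9.51 with dox and 9.60, 9.61 and 9.69 without. The 3 dox arrays lay below the 3 others without overlap. The mean was 9.40 ± 0.13 (SD, n = 3) with dox and 9.63 ± 0.05 (SD, n = 3) without, a difference of -0.23 (SE 0.08, limma adjusted p = 0.673, 95% interval -0.42 to -0.04). This difference came to -0.16 with the feeder mean as a covariate.

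Mrpl28, the homologue of bacterial L28, measured 9.51, 9.52 and 9.55 with dox and 9.56, 9.70 and 9.84 without. These groups also did not overlap, and the difference was -0.17 (SE 0.08, adjusted p = 0.673). Mrpl42, which has no bacterial counterpart, measured 9.54, 9.51 and 9.58 with dox and 9.63, 9.61 and 9.85 without. It had no overlap either, with a difference of -0.15 (SE 0.08). In both genes the dox arrays were close together and the uninduced scrambled array was the highest. Without that array Mrpl28 came to -0.101 and Mrpl42 to -0.075, and with the feeder mean as a covariate they came to -0.100 and -0.073.

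Mrpl14 lies at the face of the large subunit that meets the small subunit. It measured 8.60, 8.71 and 8.50 with dox and 8.64, 8.67 and 9.01 without, so that the uninduced scrambled array stood apart from the other 5. The difference over the lines was -0.17 (SE 0.11), made of -0.05, 0.04 and -0.51. It came to -0.055 without the uninduced scrambled array and to -0.108 with the feeder mean as a covariate. Mrpl12, a protein of the stalk that recruits translation factors, measured 10.71, 10.67 and 10.51 with dox and 10.61, 10.85 and 10.90 without. Its values overlapped, with -0.39 in the scrambled line and 0.10 in the hairpin 1 line. The fitted -0.155 came to -0.094 without the scrambled dox array, -0.096 without its uninduced partner and -0.244 without the uninduced hairpin 1 array. It came to -0.124 with the feeder mean as a covariate. Mrpl10, which anchors Mrpl12 to the ribosome, differed by -0.01, -0.09 and 0.03.

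Mrpl23, at the exit of the nascent chain tunnel, measured 11.25, 11.28 and 11.48 with dox and 11.22, 11.54 and 11.70 without. Here the lines differed more than the treatments, with both hairpin 1 arrays lowest. Mrpl18, part of the central protuberance, measured 10.69, 10.63 and 10.52 with dox and 10.68, 10.88 and 10.72 without. Mrps34, a small-subunit protein found only in mitochondria, measured 8.70, 8.60 and 8.49 with dox and 8.68, 8.76 and 8.77 without. For Mrpl23, Mrpl18 and Mrps34 the hairpin 1 line differed by 0.03, 0.01 and 0.01, and the fitted differences were -0.15 (SE 0.13), -0.15 (SE 0.08) and -0.15 (SE 0.07). The Mrpl23 difference came to -0.048 without the uninduced scrambled array, -0.285 without the uninduced hairpin 1 array and -0.015 with the feeder mean as a covariate. Mrpl18 came to -0.090 without the uninduced hairpin 2 array, and Mrps34 to -0.092 without the scrambled dox array. The feeder covariate left these 2 genes at -0.18 and -0.149, so they did not move towards 0 with it.

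At the other end stood Mrps6, a small-subunit protein whose bacterial counterpart pairs with S18. It measured 9.85, 9.92 and 9.87 with dox and 9.66, 9.58 and 9.73 without, with no overlap. The mean was 9.88 ± 0.03 (SD, n = 3) with dox and 9.66 ± 0.07 (SD, n = 3) without, a difference of 0.23 (SE 0.07, limma adjusted p = 0.673, 95% interval 0.07 to 0.38). This difference came to 0.243 with the feeder mean as a covariate. In the RefSeq annotation Mrps6 overlaps Slc5a3, the sodium and myo-inositol transporter gene, which was looked at after the values of Mrps6 were seen. Slc5a3 measured 8.50, 8.76 and 8.51 with dox and 8.33, 8.25 and 7.79 without, also higher on all 3 dox arrays. Whether transcripts of the overlapping gene contributed to the Mrps6 value was not tested.

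Mrpl22, which lines the exit tunnel, measured 8.84, 8.49 and 8.51 with dox and 8.51, 8.41 and 8.28 without. It was higher with dox in every line but the groups overlapped, since the uninduced hairpin 1 array was as high as the dox arrays of the other lines. The difference was 0.21 (SE 0.11, adjusted p = 0.676), 0.098 without the hairpin 1 dox array and 0.157 with the feeder mean as a covariate. Mrpl57, found only in mitochondria, measured 9.23, 9.23 and 9.24 with dox and 9.10, 9.11 and 9.22 without. The groups did not overlap, with a difference of 0.09 (SE 0.06, 95% interval -0.05 to 0.24) that was within the error. It came to 0.054 with quantile normalization and to 0.129 with the feeder mean as a covariate.

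The other members with the highest means lay near 0. Mrps17 measured 8.15, 8.24 and 7.99 with dox and 8.12, 8.07 and 8.07 without, a difference of 0.04 (SE 0.08). Mrpl41 measured 7.82, 7.70 and 7.78 with dox and 7.67, 7.74 and 7.83 without, a difference of 0.02 (SE 0.07). Mrpl39 measured 11.56, 11.57 and 11.51 with dox and 11.50, 11.63 and 11.48 without, a difference of 0.01 (SE 0.07). These genes showed no separation of the treatments. Mrpl32, which the inner-membrane m-AAA protease processes before assembly, measured 8.10, 8.04 and 7.90 with dox and 8.03, 8.10 and 7.90 without. Mrpl27, the homologue of a bacterial protein near the peptidyl transferase centre, measured 10.01, 10.08 and 9.86 with dox and 9.92, 10.01 and 10.03 without. Their differences were 0.001 (SE 0.08) and -0.003 (SE 0.08).

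**Figure D5:**
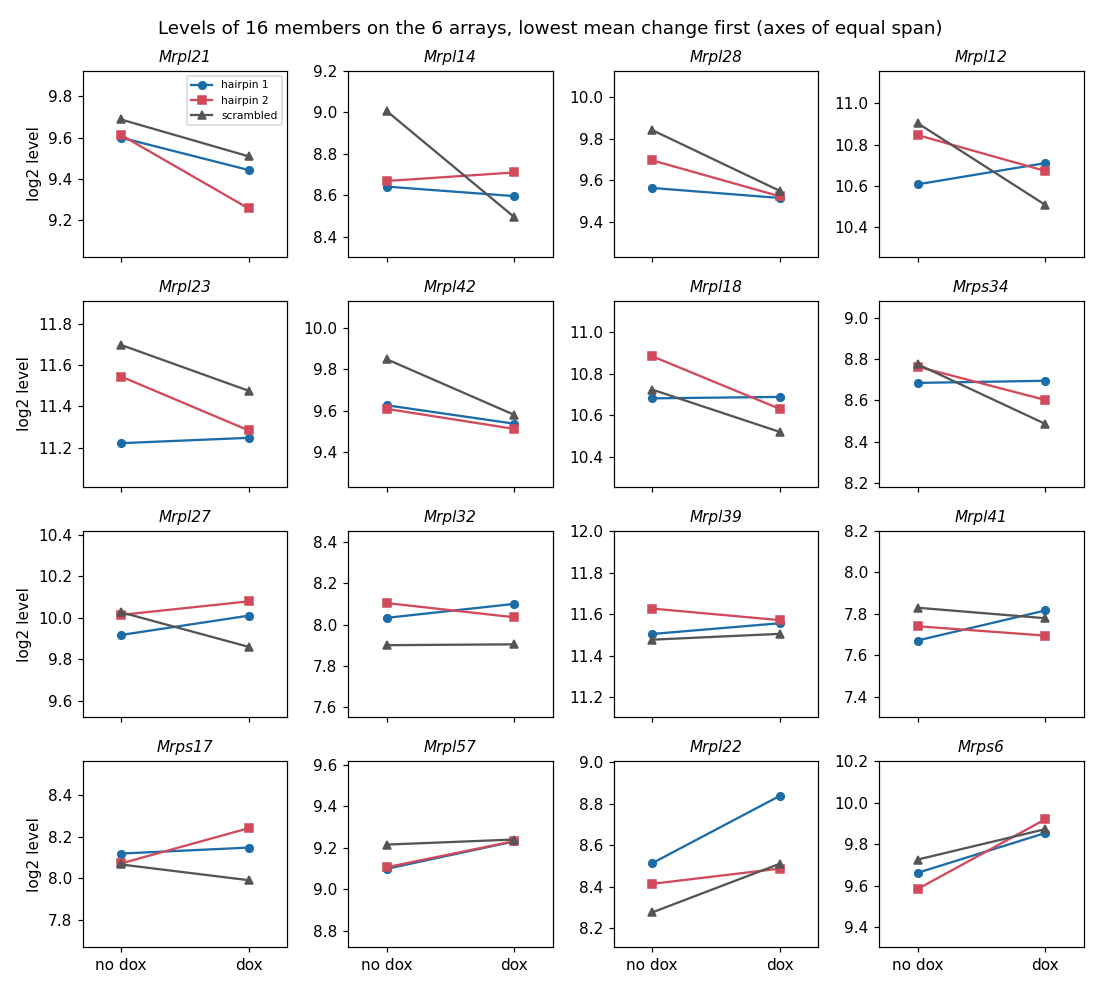
Log2 level (y axis, equal span in each panel) of the 8 members with the lowest and the 8 with the highest mean change on the 6 arrays, with a line joining the 2 arrays of each hairpin line. Mrpl21 is lower with dox in all 3 lines (-0.16, -0.35 and -0.18), Mrps6 is higher in all 3 (0.19, 0.34 and 0.15), and Mrpl14 differs mainly in the scrambled line (-0.51).

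Between subunits the values were close. The 50 members placed in the large subunit had medians of 0.030, -0.061 and -0.144, and the 26 of the small subunit had 0.014, -0.103 and -0.122. Mrps30 and Mrps18a, whose proteins sit in the large subunit despite their names, were counted there. Mrps36, now known as a part of the 2-oxoglutarate dehydrogenase complex, was counted in neither and differed by 0.01, -0.32 and -0.07. The 47 members with a bacterial homologue had medians of 0.028, -0.062 and -0.136, and the 28 found only in mitochondria had 0.007, -0.093 and -0.138. Each class showed the same order of the lines.

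The 3 Mrps18 paralogues descend from a single bacterial S18 family. Mrps18a differed by 0.06, 0.10 and -0.23, Mrps18b by -0.09, -0.14 and 0.00, and Mrps18c by -0.06, -0.32 and -0.03. The lowest line was thus scrambled for Mrps18a and hairpin 2 for the others, and the fitted differences were -0.02 (SE 0.08), -0.08 (SE 0.07) and -0.14 (SE 0.07). Mrps12, at the decoding centre of the small subunit, differed by 0.02, 0.01 and -0.18. Mrps23, a small-subunit protein found only in mitochondria, was lower by a like amount in each line, at -0.13, -0.16 and -0.14 (fitted -0.14, SE 0.06, limma adjusted p = 0.673).

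The members at least 1.2-fold lower in the hairpin 2 line were Mrps21 (-0.38), Mrpl47 (-0.37), Mrpl21 (-0.35), Mrps36 (-0.32), Mrps18c (-0.32), Mrps35 (-0.31) and Mrpl15 (-0.28). Those in the scrambled line were led by Mrpl14 (-0.51), Mrpl24 (-0.45), Mrps24 (-0.40), Mrpl12 (-0.39), Mrpl2 (-0.34) and Mrpl33 (-0.31), with the other 6 between -0.29 and -0.27. Mrps21, lowest in the hairpin 2 line, measured 10.58 with dox and 10.96 without there, and 11.10 and 11.01 in the scrambled line. Mrpl24 measured 10.23 with dox and 10.68 without in the scrambled line, and 10.52 and 10.51 in the hairpin 2 line. Mrps21 was thus slightly higher with dox in the scrambled line, and Mrpl24 was level in the hairpin 2 line.

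The third comparison, over the Pcgf6 hairpins alone, asked about dox together with lowered Pcgf6. By limma 0 of 77 members passed, where 0.191% of all genes rose and 0.01% fell, and the smallest adjusted p of a member was 0.508. The members' median was -0.032, against -0.007 over all genes, and 51 of 77 fitted values were below 0 and 26 above, where 52.5% and 47.5% of all were. At an unadjusted p under 0.05 Mrps6 was higher (0.26, SE 0.09, n = 2 against 2, adjusted p = 0.508) and Mrpl21 lower (-0.26, SE 0.10, adjusted p = 0.538), where 4.39% of all genes were higher and 4.36% lower. The 40 genes called came to 24 with the hairpin 1 dox array left out, 26 with the hairpin 2 dox array left out and 14 with either uninduced partner left out, and 0 were members in each.

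The fourth comparison set the dox response of the lines with a Pcgf6 hairpin against that of the scrambled line. Again 0 of 77 members passed, where 0.0652% of all genes were called higher and 0.00502% lower. No member had an adjusted p below 0.999 by limma. The median was 0.100, positive where the hairpin lines had the higher response, against 0.002 over all genes, and 54 of 77 values were above 0 and 23 below, where 50.3% and 49.7% of all were. All 20 feeder fibroblast markers were below 0 here, with a median of -0.277, and with the feeder mean as a covariate the members' median was 0.043. The slope of that covariate rested on the hairpin 1 and hairpin 2 arrays only. An unadjusted p under 0.05 was reached by 5 members, all above 0, or 6.49% where 2.63% of all genes were, and by 0 below it, where 1.92% were. These were Mrpl24 (0.54, SE 0.19), Mrpl14 (0.51, SE 0.15), Mrps24 (0.41, SE 0.16), Mrpl2 (0.41, SE 0.16) and Mrpl38 (0.36, SE 0.15). Mrpl2 lies near the peptidyl transferase centre and Mrpl38 in the central protuberance. The scrambled arrays were single, and members' intervals reached up to 0.99, so that differences below that size could not be left out for every member. With the line as a block 23 genes passed in place of 14. It came to 4 with the hairpin 1 dox array left out, to 3 with the hairpin 2 dox array left out and to 0 with either of their uninduced partners left out. In each of these fits 0 members passed.

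The last comparison set the uninduced Pcgf6-hairpin lines against the uninduced scrambled line. By limma 0 members passed, where 0% of all genes were called, and the smallest adjusted p was 0.459. The median was -0.033, against -0.001 over all genes, with 47 values below 0 and 30 above, where 50.2% and 49.8% of all were. Member values ran from -0.35 to 0.25 and their 95% intervals reached up to 0.68 in size, so that differences below that size could not be left out for every member. Mrpl14 alone reached an unadjusted p under 0.05, lower in the hairpin lines at -0.35 (SE 0.11, n = 2 against 1), where 3.19% of all genes were lower and 4.87% higher. The feeder fibroblast markers had a median of 0.748 in this comparison, and all 20 were above 0. With the feeder mean as a covariate the members' median was 0.134. The slope of the covariate again rested on the hairpin 1 and hairpin 2 arrays only and was carried over to the scrambled line.

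For 8 members a further probe set allowed a check within the gene. Both probe sets of Mrpl23 gave 0.03 and 0.02, -0.26 and -0.26, and -0.22 and -0.22. Those of Mrps36 gave 0.01 and -0.04, -0.32 and -0.34, and -0.07 and -0.08. Mrpl47 differed between its probe sets, at 0.10 and -0.06, -0.37 and -0.17, and -0.14 and -0.12. For Mrpl51 the brighter gave -0.04, -0.03 and -0.13, and the dimmer -0.22, -0.12 and -0.17. Mrpl27 gave 0.09, 0.07 and -0.17 with the brighter and -0.06, -0.02 and -0.10 with the dimmer, so that its sign in the hairpin lines depended on the probe set. In the hairpin 2 line Mrpl41 gave -0.05 and -0.27, Mrps5 -0.16 and -0.26, and Mrps33 -0.09 and -0.07. Probe set numbers run along the chromosomes: for 96.8% of named probe sets, most of the 20 nearest by number belonged to the chromosome of the gene. The probe sets used for Mrpl27, Mrpl41, Mrpl48, Mrpl51 and Mrps33 did not follow this, so these may read a copy elsewhere and their values are uncertain. Nor did the further probe sets of Mrpl23 and Mrps36, so their likeness to the ones used may not be an independent check. Only chromosomes were compared, so a probe set reading a copy on the same chromosome would not be seen. Both probe sets of Mrps5 fall on its chromosome, where its promoter window begins at base 127587176. By number the one used lies near a probe set of Mrpl41, whose window begins at base 24975049. The further one lies near that of Mrps26, whose window begins at base 130563507. The probe set used for Mrps5 may thus read a copy elsewhere too, and its value is uncertain.

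Other genes of mitochondrial translation followed, each list taken from general knowledge. Over the 3 lines 0 of 19938 genes passed, so 0 was the only possible count of calls for any list. At an unadjusted p under 0.05 by limma 3.2% of all genes were higher and 3.96% lower. Of the 15 translation factors, all measured, 0 rose and 0 fell by limma over the 3 lines, with 0 at an unadjusted p under 0.05, and the line medians were 0.060, 0.098 and -0.072. Tsfm, which recharges the elongation factor Tufm, differed by -0.03, -0.13 and -0.30, and the initiation factor gene Mtif3 by 0.16, 0.26 and -0.04. Of 17 mitochondrial aminoacyl-tRNA synthetase genes 16 were measured and 0 passed (1 at an unadjusted p under 0.05), with medians of -0.010, 0.021 and -0.046. Ears2, for glutamate, differed by -0.30, -0.30 and -0.04, and Wars2, for tryptophan, by 0.13, 0.12 and 0.19. In both groups the median was highest in the hairpin 2 line and lowest in the scrambled line.

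The 22 assembly factors of the mitochondrial ribosome were all measured and 0 passed (2 at an unadjusted p under 0.05, Ddx28 and Rpusd4), with medians of 0.050, -0.015 and -0.087. The RNA helicase gene Ddx28 differed by -0.28, -0.36 and -0.12, a fitted -0.25 (SE 0.07, limma adjusted p = 0.673). The pseudouridine synthase gene Rpusd4 differed by -0.18, -0.13 and -0.38, a fitted -0.23 (SE 0.07). Nsun4, a ribosomal RNA methyltransferase gene, differed by -0.24, -0.39 and 0.04, and the GTPase gene Noa1 by 0.33, 0.19 and -0.001. Of 9 genes of mitochondrial DNA maintenance and transcription 7 were measured and 0 passed (0 at an unadjusted p under 0.05), with medians of 0.005, 0.012 and -0.047. Tfam, which packages mitochondrial DNA, differed by -0.02, -0.06 and -0.21, and Ssbp1, the single-strand binding protein gene, by 0.06, -0.16 and -0.29.

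Of 7 further names of mitochondrial ribosomal proteins outside the Mrpl and Mrps pattern, 4 were read by other probe sets: Chchd1, Dap3, Gadd45gip1 and Ptcd3. Their medians were 0.001, -0.098 and -0.175 and 0 passed, at an unadjusted p under 0.05 too, and the order of the lines was that of the members. Chchd1 differed by -0.003, -0.10 and -0.35, Gadd45gip1 by 0.004, -0.10 and -0.19, Dap3 by -0.03, -0.05 and -0.16, and Ptcd3 by 0.07, -0.21 and -0.01.

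The nuclear-encoded respiratory chain genes, of which 77 were measured, had medians of 0.022, -0.026 and -0.131, and 0 passed (1 at an unadjusted p under 0.05). Ndufv3, of complex I, differed by -0.30, -0.28 and -0.17. The 57 cytosolic ribosomal protein genes, which belong to the ribosome outside mitochondria, had medians of -0.004, -0.038 and -0.147, and 0 passed (3 at an unadjusted p under 0.05). In the scrambled line 55 of 57 were lower with dox, where 53.4% of all genes were. Rps19 differed by -0.16, -0.12 and -0.40, and Rpl12 by -0.24, -0.22 and -0.18 (fitted -0.21, SE 0.06, limma adjusted p = 0.673). Lower values in the scrambled line were therefore not seen in the mitochondrial ribosomal protein genes alone.

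Stress genes known to respond to impaired mitochondrial translation were also read. Of 16 genes of the integrated stress response 14 were measured and 0 passed (0 at an unadjusted p under 0.05), with medians of -0.009, 0.041 and -0.156. Atf4, the central transcription factor, differed by -0.16, -0.10 and -0.11. Its partner gene Ddit3 differed by 1.59 in the hairpin 2 line but -0.01 and 0.08 in the hairpin 1 and scrambled lines, each 1 array against 1. Pck2 and Mthfd2, metabolic targets of the pathway, differed by -0.74 and -0.41 in the scrambled line. The 14 genes ran from -0.16 to 0.23 in the hairpin 1 line and from -0.24 to 1.59 in the hairpin 2 line. In the scrambled line they ran from -0.74 to 0.14. Without dox they already differed between lines: the hairpin lines minus the scrambled line gave a median of -0.254, with 12 genes below 0 and 2 above. What part the single uninduced scrambled array had in the scrambled values was not tested. The 10 mitochondrial chaperone and protease genes had medians of -0.004, 0.058 and -0.076, and 0 passed, at an unadjusted p under 0.05 too. Hspe1, the chaperonin partner of Hspd1, differed by -0.06, -0.05 and -0.08, and the protease gene Lonp1 by -0.05, 0.14 and -0.26.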

How the data were processed

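The authors deposited log2 values, which they computed by RMA in Affymetrix Power Tools according to the submitters' processing notes; versions and options are not given in the sources used here. RMA removes a change shared by most genes. Each of 6 GeneChip Mouse Gene 1.0 ST arrays is 1 sample, so the number of arrays limits the precision. Each array has its own line and treatment, and no combination was repeated. Arrays pooled in a group come from different lines. The p-values thus measure only how these samples spread, with differences between lines and technical variation together. Of 35556 probe sets, 21789 had 1 gene symbol, 1621 several and 12146 none; genes with several probe sets were read by the brightest, leaving 19938 genes, with no filter on level.

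Fits used limma 3.58.1 in R 4.3.3 and were tested on simulated data. A model of 2 groups compared 3 dox arrays with 3 others (4 residual and 3.66 prior degrees of freedom). A model of 4 groups (2 residual, 4.44 prior) gave the other comparisons. The single scrambled arrays were assumed to vary like the hairpin groups. Tests were two-sided, adjusted by Benjamini-Hochberg over all genes, with a threshold of 0.05.

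Arrays of a line pair by their hairpin: deviations from the treatment mean correlated at 0.176, 0.323 and 0.377 within the hairpin 1, hairpin 2 and scrambled lines, and the line entered as a block as an alternative. Other alternatives changed the normalization, the filter on dim genes, the probe set rule and the variance trend, added the mean of the 20 feeder markers (feeder score) as a covariate, or left out an array. The members and lists were chosen with earlier results of these data known. Values per array are given for the 8 members with the highest and the 8 with the lowest mean change; any other member could be named, and up to 4 genes of each other list with the largest mean change. Atf4, Mthfd2 and Slc5a3 lie outside this rule and were named after their values were seen.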

Additional observations from a re-analysis of the deposited data

Results flagged for a closer look

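The medians of 2 gene lists lay on opposite sides of 0 in the scrambled line and in both Pcgf6-hairpin lines, a difference that was not tested for the lists. The mitochondrial translation factors had a median of -0.072 in the scrambled line and of 0.060 and 0.098 in the hairpin 1 and hairpin 2 lines. The genes of mitochondrial DNA maintenance and transcription had a median of -0.047 in the scrambled line and of 0.005 and 0.012 in the hairpin lines. No gene of either list passed limma's test of the difference between the responses.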

How the results depend on the processing

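In all 56 alternative fits over the 4 comparisons 0 members passed; the smallest adjusted p by limma was 0.293. The members' median over the 3 lines lay between -0.084 and -0.060 under 9 alternatives and between -0.088 and -0.034 with an array left out. In the lines it lay between 0.007 and 0.034, -0.119 and -0.070, and -0.163 and -0.132 (hairpin 1, hairpin 2, scrambled). For uninduced lines it was 0.134 with the feeder score as a covariate, against -0.033, and between -0.064 and -0.009 with an array left out. The slope of that covariate rested on the hairpin 1 and hairpin 2 arrays only. For the Pcgf6 hairpins the members' median lay between -0.062 and -0.015, and for the difference from scrambled between 0.049 and 0.117, with an array left out.

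Counts of all genes called moved more. For the Pcgf6 hairpins the 40 became 62 with an intensity trend, 7 on the brighter 50% of genes, 18 with the feeder score and 14 to 40 with an array left out. For the difference the 14 became 22 with median centring, 9 and 4 without the dimmest 25% and 50%, 0 over all probe sets, 0 with the feeder score, 23 with the line as a replicate block and 0 to 4 with an array left out; the block changed no call of a member. Over the 3 lines the count lay between 0 and 54 with an array left out.

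Members close to 0 turned sign, and the cause was not tested. Mrpl32 (0.001) measured -0.039 with quantile normalization, -0.021 with median centring and -0.068 with the feeder score. Mrpl39 measured -0.014 with median centring and -0.025 with the feeder score. Mrpl41 measured -0.016, -0.006 and -0.032 with quantile normalization, median centring and the mean of its probe sets. Mrps17 measured -0.002 with quantile normalization and -0.014 with the feeder score. With an array left out Mrpl27 lay between -0.051 and 0.059, Mrpl32 between -0.055 and 0.055, Mrpl39 between -0.022 and 0.054, Mrpl41 between -0.021 and 0.058, and Mrps17 between -0.016 and 0.109.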
